A study of Mus musculus with 10 samples.

Results

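The 9 genes of endothelial cell contacts, out of 46983 genes counted, were compared in cardiac ECs of mice on a control diet and on a ketogenic diet. They were taken by symbol: Cdh5, Pecam1, Cldn5, Ocln, Esam, Tjp1, F11r, Jam2 and Jam3. All 9 were found and all 9 had enough reads to be tested. The mice were male C57Bl/6J animals, with no allele named in the labels or methods, placed on a diet from 8 weeks of age and fed it for 14 days. The control diet (5 mice) held 11.6% of its energy as fat, and the ketogenic diet (5 mice) 89.5%. The cells were pulled from the heart with antibodies to CD31 on magnetic beads. CD31 is the protein of Pecam1, so that gene's own product chose the cells, and a purified population can still hold other heart and blood cells. The labels do not say whether a sample is a single heart. Samples are called mice here, and p-values set a diet difference against the spread between them. For some genes, given below, that spread mostly followed the total reads of the sample. In bulk RNA, fewer cells of a type and less RNA per cell cannot be told apart.

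Endothelial cells are held together by adherens junctions and tight junctions. In adherens junctions VE-cadherin, the protein of Cdh5, binds its like on the neighbouring cell and is tied by catenins to actin. In tight junctions claudins and occludin seal the gap and are anchored to actin by zonula occludens proteins, while junctional adhesion molecules of the immunoglobulin family help to place the complex and guide passing leukocytes. Cldn5 is the main claudin of endothelium and is known above all for the barrier of brain vessels. Most heart capillaries are of the continuous type, with less elaborate tight junctions than those of the brain.

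The reads assigned to genes numbered 10885154 to 12206734 a mouse under the control diet and 11108020 to 12710861 under the ketogenic diet, and these totals did not differ detectably (two-sided exact permutation test, p = 0.230). Normalized counts are reads scaled between mice by TMM factors. Of 15949 genes tested with edgeR's quasi-likelihood test, 213 had a Benjamini-Hochberg adjusted p under 0.05, which is 1.34% of them. Another unit is needed to read the raw counts. A 50-base read can start at only a limited number of positions on a transcript, which is the length minus 49 on each strand. If each position is counted only once, a count that approaches the number of positions on both strands has little room to rise. The count divided by that number is called the share of start positions here. Whether the authors removed repeated reads from one position is not given in the sources used here.

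None of the 9 junction genes had an adjusted p under 0.05 between the diets (0 of 9, against 1.34% of all genes). At an unadjusted p under 0.05 edgeR gave 1 gene, Tjp1, where 17.8% of all genes lay under that value. DESeq2 gave 1 gene at an adjusted p under 0.05, again Tjp1, against 5.61% of the genes to which it gave an adjusted p. The estimate was above 0 for 3 genes and below 0 for 6, and the median log2 fold change was −0.04, beside −0.01 for all genes. It was also −0.04 for the 354 genes whose mean count reached 1000 and that filled at least 50% of their start positions, and −0.0092 for the 3417 genes past the same count that filled less. In no gene were the normalized counts of the diets free of overlap, against 4.34% of all genes. Leaving aside Ocln and Tjp1, the 95% intervals lay between −0.17 and 0.12 on the log2 scale with the deposited counts and between −0.19 and 0.48 with counts corrected for filled start positions. The correction used the length of all exons and is not defined where a count exceeds the positions. By the shorter principal transcript this held for Pecam1 and Esam, at 107% and 108%, so the corrected range depends on the length chosen.

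**Figure D1:**
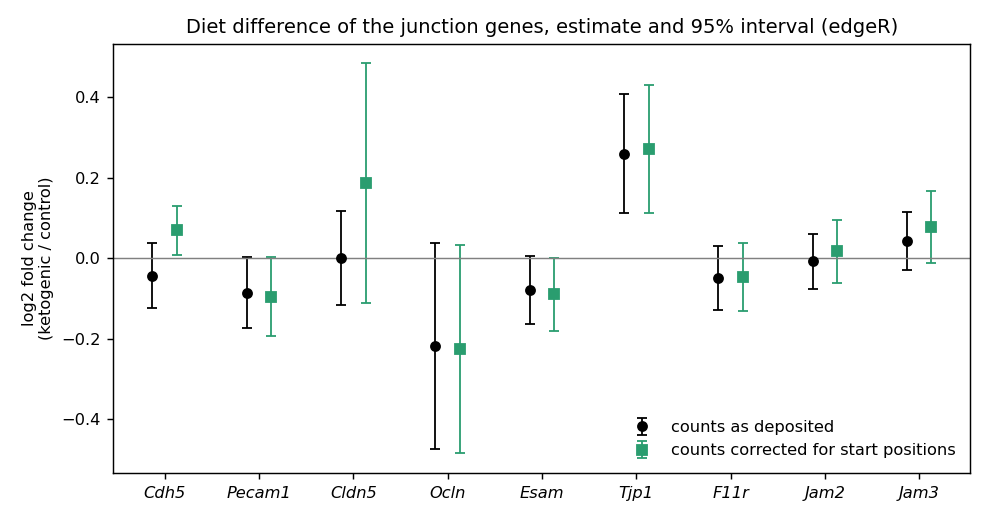
Log2 fold change, ketogenic over control diet, of the 9 junction genes on the y axis with 95% intervals from edgeR (bars), for the counts as deposited (circles) and for counts corrected for filled start positions (squares). With the deposited counts Tjp1 lies highest at 0.26 and Ocln lowest at −0.22, and with corrected counts Cdh5 lies above 0 at 0.07 and the interval of Cldn5 widens to −0.11 to 0.48.

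Cdh5 (ENSMUSG00000031871, chromosome 8 from 104101625 to 104144511 on GRCm38, plus strand) encodes VE-cadherin, the adhesion molecule of the endothelial adherens junction. Its raw counts in control mice 1 to 5 were 7356, 7449, 7414, 7361 and 7401. Its raw counts in ketogenic mice 1 to 5 were 7522, 7432, 7514, 7533 and 7571. Of the 5 ketogenic mice, 4 lay above all control mice in raw reads, although the means differed by only 1.60%. The normalized means went the other way, at 7583 ± 323 (SD, n = 5) on the control diet and 7358 ± 311 (SD, n = 5) on the ketogenic diet, and the diets overlapped. The log2 fold change was −0.04 with a 95% interval of −0.12 to 0.04 (edgeR adjusted p = 0.571).

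The raw counts of Cdh5 were nearly constant. The highest was only 1.03 times the lowest, whereas the library totals spanned 1.17 times, and the variance within a diet was 0.275 of the mean, below that of counting reads at random. The gene's exons cover 3986 bases, which leave 7874 start positions on both strands, and its counts filled 93.4% to 96.2% of them. Every count exceeded the number of positions on a single strand. Across the 10 mice the normalized count of Cdh5 fell as the library total rose, with a Pearson correlation of −0.995 and a Spearman correlation of −1, and −0.991 without the 2 mice of most extreme total. The points share their libraries, as the total is also the base of the scaling. A correction for filled start positions, which raises a count the more the closer it is to the limit, turned the estimate of Cdh5 to 0.07 (95% interval 0.00869 to 0.13, edgeR adjusted p = 0.215), so its direction depends on how this limit is treated.

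**Figure D2:**
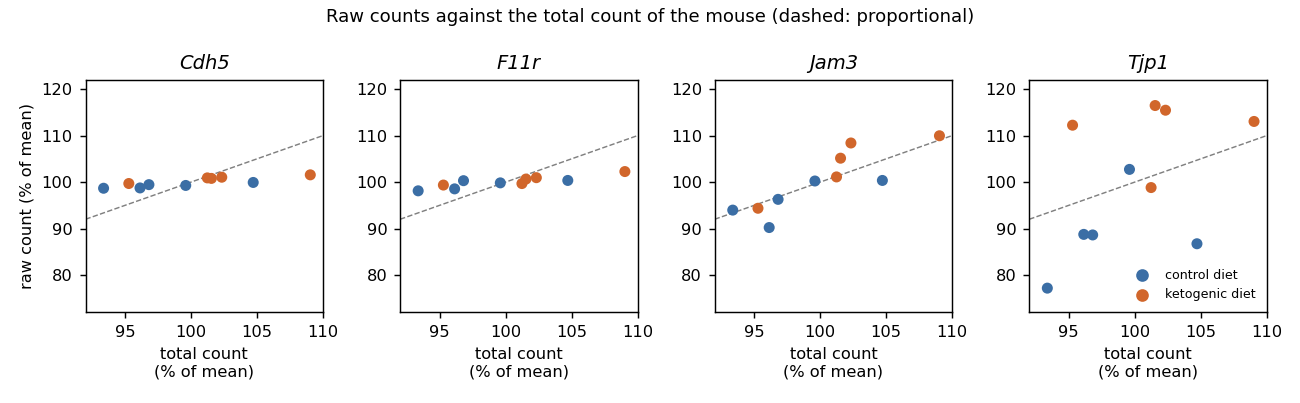
Raw count of Cdh5, F11r, Jam3 and Tjp1 against the total count of each mouse, both as percent of the mean over the 10 mice, 1 point per mouse colored by diet, with a dashed line where a count would be proportional to the total. The points of Cdh5 and F11r form a nearly flat row, with a highest raw count 1.03 and 1.04 times the lowest, while those of Tjp1 spread over 1.51 times.

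Pecam1 (chromosome 11 from 106654217 to 106750628, minus strand) encodes the homophilic adhesion molecule CD31, found at endothelial contacts and on platelets and leukocytes. Its raw counts were 6905, 7020, 6954, 6884 and 6997 in control mice 1 to 5. In ketogenic mice 1 to 5 they were 6824, 6942, 6770, 6873 and 6869. The ranges overlapped, and the highest raw count was 1.04 times the lowest. The normalized means were 7127 ± 285 on the control diet and 6715 ± 357 on the ketogenic diet (SD, n = 5 each). The log2 fold change was −0.09 with an interval of −0.17 to 0.00152 (edgeR adjusted p = 0.288).

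The share of start positions for Pecam1 depends on which transcript is assumed. All exons together cover 10208 bases, and the counts filled on average 34.0% of their positions. The principal transcript has 3283 bases, and against it the share was 107%, as more reads were counted than it has start positions. The variance of Pecam1 was 0.539 of its mean, below random counting. Its normalized count followed the library total with a Pearson correlation of −0.973 over the 10 mice, and its raw count did not (−0.14).

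Esam (chromosome 9 from 37528078 to 37538319, plus strand) encodes an immunoglobulin-family adhesion molecule of endothelial tight junctions and platelets. Its raw counts lay between 3913 and 4004 on the control diet and between 3861 and 3945 on the ketogenic diet. The normalized means were 4038 ± 158 and 3824 ± 176 (SD, n = 5 each), a log2 fold change of −0.08 with an interval of −0.16 to 0.00608 (edgeR adjusted p = 0.315). Its counts filled 54.6% of the positions of all exons and 108% of those of the principal transcript, and the variance was 0.328 of the mean. Markers of platelets, which also carry both Pecam1 and Esam, were lower in the ketogenic samples. The sum of 5 platelet markers ran from 4699 to 7635 normalized counts on the control diet and from 2184 to 5603 on the ketogenic diet (two-sided exact permutation test, p = 0.0317), with none of the 5 at 0 in any mouse. Their part in the values of Pecam1 and Esam was not tested.

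**Figure D3:**
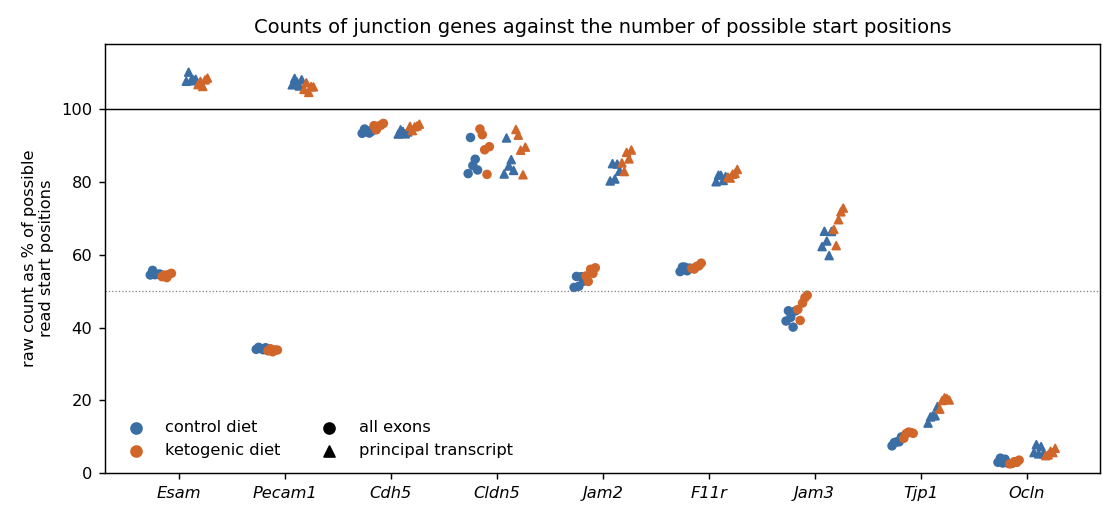
Raw count of each junction gene in each mouse as percent of the possible read start positions of all exons (circles) and of the principal transcript (triangles), colored by diet, with lines at 50% and 100%. By all exons Cdh5 lies at a mean of 94.7% and Cldn5 at 87.7%, while Tjp1 and Ocln lie at 9.63% and 3.08%, and Esam and Pecam1 pass the upper line only by the principal transcript.

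Tjp1 (chromosome 7 from 65296165 to 65527781, minus strand) encodes ZO-1, the scaffold that ties claudins, occludin and junctional adhesion molecules to actin. Its normalized counts in control mice 1 to 5 were 2070.41, 2054, 2278, 2320.26 and 2566. In ketogenic mice 1 to 5 they were 2421, 2914, 2839, 2786 and 2558. Of the 5 ketogenic mice, 3 lay above every control mouse, while ketogenic mice 1 and 5 lay below control mouse 5. The means were 2258 ± 210 on the control diet and 2704 ± 206 on the ketogenic diet (SD, n = 5 each), higher by 19.8%. The log2 fold change was 0.26 with a standard error of 0.0681 and an interval of 0.11 to 0.41 (edgeR unadjusted p = 0.00246, adjusted p = 0.0805). A two-sided exact permutation test of the same values gave p = 0.0238.

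The value for Tjp1 lay on either side of the threshold with the choice of test and mice. DESeq2 gave 0.27 with an adjusted p of 0.00896. Without control mouse 5, the highest of its group, edgeR gave 0.31 with an adjusted p of 0.0490, and over the mice left out in turn the adjusted p ran from 0.0490 to 0.161. The room for Tjp1 to vary was wide, since its counts filled 9.63% of the positions of all exons and 17.7% of those of the principal transcript, and the variance was 16.6 times the mean.

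Tjp1 is also used by cardiomyocytes, at the intercalated disc. The sum of 8 cardiomyocyte markers ran from 6138 to 7592 normalized counts on the control diet and from 6866 to 9455 on the ketogenic diet, a ratio of 1.21 (two-sided exact permutation test, p = 0.0238). All 8 markers had an estimate above 0, and none was at 0 in any mouse. By edgeR, 6 of them had an unadjusted p under 0.05 and 0 an adjusted one, where 8.57% of all genes were higher at an unadjusted p. When a score of these markers per mouse entered the fit as a covariate, the log2 fold change of Tjp1 was 0.10 with an interval of −0.06 to 0.27 (edgeR adjusted p = 0.657). The score itself differed with diet, from −1.31 to 0.20 in control mice and from −0.49 to 1.58 in ketogenic mice. A fit with this covariate therefore cannot separate the score from the diet, for Tjp1 or any other gene. Whether the reads of Tjp1 came from ECs or from cardiomyocytes was not tested.

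Cldn5 (chromosome 16 from 18776847 to 18778262, plus strand, 1 exon) encodes claudin 5, the sealing protein of endothelial tight junctions. Its raw counts were 2248, 2519, 2308, 2356 and 2275 in control mice 1 to 5. In ketogenic mice 1 to 5 they were 2583, 2540, 2427, 2242 and 2450. The ketogenic mice held both the highest and the lowest count. The normalized means were 2397 ± 70.4 and 2399.62 ± 203 (SD, n = 5 each), a log2 fold change of 0.00107 with an interval of −0.12 to 0.12 (edgeR adjusted p = 0.994).

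Cldn5 is the shortest member, at 1414 bases. Its counts filled 82.1% to 94.6% of its start positions. Unlike Cdh5, it still varied between mice, with a variance 6.03 times the mean. After correction for filled positions, its normalized counts ran from 4927 to 6642 on the control diet and from 4561 to 7859 on the ketogenic diet, a log2 fold change of 0.19 with a far wider interval of −0.11 to 0.48 (edgeR adjusted p = 0.505). Near the limit, a small difference in reads stood for a large one in the corrected count.

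Ocln (chromosome 13 from 100496507 to 100552718, minus strand) encodes occludin, a membrane protein of tight junctions. Its normalized counts were 484, 594, 433, 609.543 and 423 in control mice 1 to 5. In ketogenic mice 1 to 5 they were 375, 415, 468, 434 and 492. Control mice 2 and 4 lay above all others, and the rest of the diets overlapped. The means were 509 ± 88.2 and 437 ± 45.7 (SD, n = 5 each), a log2 fold change of −0.22 with an interval of −0.47 to 0.04 (edgeR adjusted p = 0.356). Ocln had the fewest reads of the 9 genes and filled only 3.08% of its positions, and its interval was the widest.

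**Figure D4:**
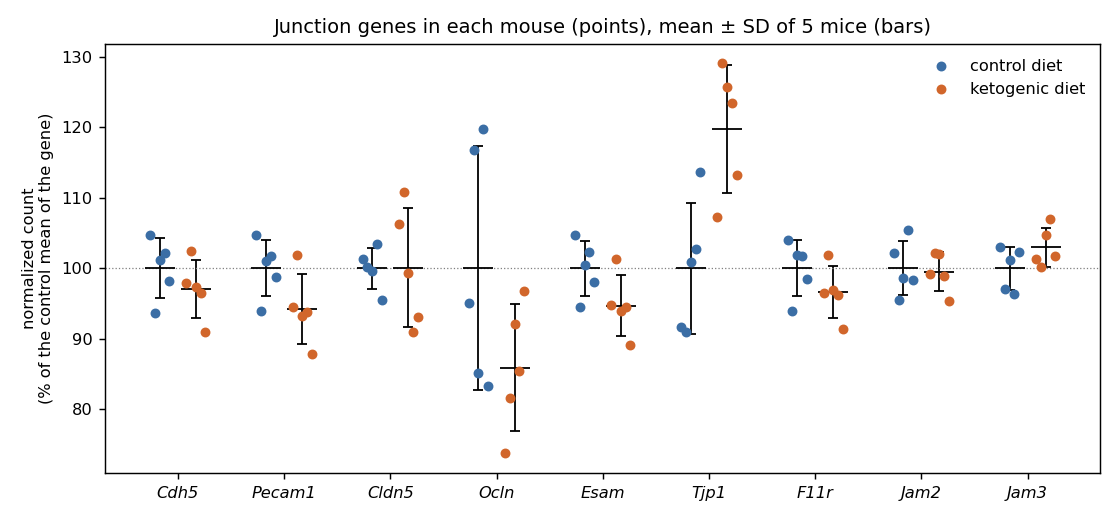
Normalized counts of the 9 junction genes in each mouse (points, colored by diet) as percent of the control mean of the gene, with the mean and SD of 5 mice (bars) and an axis that does not start at 0. The diets overlap in every gene, and Tjp1 has 3 ketogenic mice above all control mice.

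None of the 3 junctional adhesion molecules had an adjusted p under 0.05 by edgeR (0 of 3), nor an unadjusted one. F11r (chromosome 1 from 171437535 to 171464603, plus strand) encodes JAM-A, which occurs on endothelium, epithelium, platelets and leukocytes. Its raw counts lay between 3955 and 4045 on the control diet and between 4005 and 4122 on the ketogenic diet, and the normalized means were 4108 ± 162 and 3969 ± 153 (SD, n = 5 each). The log2 fold change was −0.05 with an interval of −0.13 to 0.03 (edgeR adjusted p = 0.505). Its counts filled 56.4% of all exonic positions and 81.6% of those of the principal transcript, with a variance of 0.481 of the mean.

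Jam2 (chromosome 16 from 84774123 to 84825928, plus strand) encodes JAM-B of endothelial contacts. Raw counts lay between 6940 and 7352 on the control diet and between 7164 and 7676 on the ketogenic diet, and 4 of 5 ketogenic mice exceeded every control mouse in raw reads. That order was lost after scaling, with normalized means of 7336 ± 279 and 7298 ± 203 (SD, n = 5 each) and a log2 fold change of −0.00742 (interval −0.08 to 0.06, edgeR adjusted p = 0.927). Its share of positions was 53.7% by all exons and 84.6% by the principal transcript.

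Jam3 (chromosome 9 from 27097384 to 27155421, minus strand) encodes JAM-C, a partner of JAM-B. Its raw counts lay between 2263 and 2517 on the control diet and between 2367 and 2758 on the ketogenic diet. The normalized means were 2471 ± 75.2 and 2544 ± 69.3 (SD, n = 5 each), a log2 fold change of 0.04 with an interval of −0.03 to 0.11 (edgeR adjusted p = 0.533). With corrected counts it was 0.08 with an interval of −0.01 to 0.17. Its share of positions was 44.5% by all exons and 66.3% by the principal transcript. Exons of Jam3 overlap the antisense gene Gm48796, and since the libraries do not record the strand, their reads cannot be told apart.

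By the length of all exons, 5 of the 9 genes, Cdh5, Cldn5, Esam, F11r and Jam2, filled at least 50% of their start positions. By the principal transcript, a length chosen after seeing the data, Pecam1 and Jam3 joined them, which made 7. Cdh5, Pecam1, Esam and F11r were the 4 members with a variance below their mean. Of all genes whose mean count reached 1000, 354 filled at least 50% of their positions, and 93 of these, or 26.3%, had a variance below the mean. Of the 3417 that filled less, 147 did, or 4.30%. By edgeR, 2 of the 354 had an adjusted p under 0.05, or 0.565%, and 77 of the 3417, or 2.25%. Cdh5, F11r, Pecam1 and Esam had normalized counts that followed the library total with Pearson correlations of −0.995, −0.992, −0.973 and −0.970 over the 10 mice, whereas Ocln, Tjp1 and Jam3 had 0.11, 0.14 and 0.11. Jam2 had −0.77, and Cldn5, the second most filled member by all exons, only −0.57, less far from 0 than Pecam1 with 34.0% of these positions filled. Total and normalized count share the same library. The raw counts of Cdh5, F11r, Pecam1 and Esam hardly varied. Their SDs, intervals and p-values from normalized counts therefore mostly reflect the spread of library totals, and say little about expression differences between mice.

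Ratios of 2 members within a mouse do not depend on how libraries are scaled, and 4 were tested. The log2 ratio of Tjp1 to Cdh5 was −1.75 ± 0.144 on the control diet and −1.45 ± 0.0968 on the ketogenic diet (SD, n = 5 each), higher by 0.30, or 1.24-fold (two-sided exact permutation test, p = 0.0159, adjusted over the 4 ratios p = 0.0317). The diets overlapped in this ratio, since control mouse 5 at −1.54 lay above ketogenic mouse 1 at −1.62. After correction for start positions the difference was 0.20 (exact permutation p = 0.0556). Cdh5 filled nearly all of its positions, so this ratio divides a free count by a nearly constant one.

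Pecam1 to Cdh5 had a log2 ratio of −0.0894 ± 0.00614 on the control diet and −0.13 ± 0.0201 on the ketogenic diet (SD, n = 5 each). All 5 ketogenic mice lay below all control mice, and the difference was −0.04, a ratio of 0.971 (two-sided exact permutation test, p = 0.00794, the smallest that 5 against 5 mice can give, adjusted p = 0.0317). Both genes vary less than random counting. With corrected counts this difference was −0.17 (exact permutation p = 0.00794). The correction used the length of all exons, by which Pecam1 filled 34.0% of its positions and Cdh5 94.7%. It therefore raised Cdh5 far more than Pecam1. Against its principal transcript Pecam1 filled 107%, where the correction is not defined, so the corrected difference rests on the length chosen. The ratio of Cldn5 to Cdh5 differed by 0.04 (exact permutation p = 0.397, adjusted p = 0.397), and by 0.096 with corrected counts (exact permutation p = 0.619). That of Ocln to Cldn5 differed by −0.21 (exact permutation p = 0.190, adjusted p = 0.254), and by −0.38 with corrected counts (exact permutation p = 0.119).

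Levels between genes were compared per length, as mean RPKM over the 10 mice from the deposited table, where RPKM is reads scaled to exon length and library total. Cdh5 was highest at 161 ± 6.29 (SD, n = 10), rank 17 among the tested genes, and the highest RPKM of any gene in any mouse was 190.5. Cldn5 followed at 145 ± 8.51, and the mice of these neighbours overlapped. F11r at 95.7 ± 3.55, Esam at 92.5 ± 4.15 and Jam2 at 91.6 ± 2.58 overlapped each other as well. Jam3 had 74.9 ± 2.57, Pecam1 58.1 ± 2.89, Tjp1 16.4 ± 2.09 and Ocln 5.25 ± 0.831. The length behind an RPKM is that of all exons, so that Pecam1, with 10208 exonic bases, stands lower here than its principal transcript of 3283 bases would place it. Where positions were nearly full, as for Cdh5 and Cldn5, the level is bounded too.

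The members most alike across the 10 mice were Pecam1 and Esam, with a Pearson correlation of 0.995 on log2 CPM (counts relative to the library total), and Cdh5 and F11r at 0.990. Those of lowest correlation were Ocln and Jam3 at −0.59, Cldn5 and Jam3 at −0.53 and Ocln and Tjp1 at −0.50. Among 10881 genes, those closest to Cdh5 were Ppp1ca at 0.997, mt-Nd2 at 0.997 and Cavin2 at 0.996, which filled 78.5%, 89.7% and 98.4% of their own start positions. Closest to Cldn5 were Pfn1 at 0.964, Pdia3 at 0.956 and Junb at 0.931. These 3 filled 16.2%, 35.4% and 75.3% of their start positions. The correlations are a description without a test, over libraries that share their totals.

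Junction partner genes were taken from 5 lists, which hold 66 genes, of which 65 were in the table and 62 were tested. Of these, 1 had an adjusted p under 0.05 and was higher on the ketogenic diet (0.809% of all genes were), and 1 was lower (0.527% of all genes). At an unadjusted p under 0.05 there were 6 higher and 11 lower, where all genes gave 8.57% and 9.26%. The estimate was above 0 for 21 and below 0 for 41, with a median log2 fold change of −0.05 beside −0.01 for all genes.

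Cldn15, a claudin that forms cation pores and is best known from the intestine, was the partner that rose (chromosome 5 from 136966616 to 136975858). Its normalized counts lay between 840.3 and 1173 on the control diet and between 1288 and 1419.9 on the ketogenic diet, without overlap, as in 2.4% of all genes with the ketogenic mice above. The means were 968 ± 124 and 1346 ± 50.0 (SD, n = 5 each), a log2 fold change of 0.48 (standard error 0.0755, edgeR adjusted p = 0.0118). With the cardiomyocyte marker score as a covariate the log2 fold change was 0.44 and the adjusted p was 0.156, and in 20 of 21 alternatives it was under 0.05.

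Rapgef1, an exchange factor that activates Rap1 to strengthen cadherin adhesion, was the partner that fell (chromosome 2 from 29619720 to 29740978). Its normalized counts lay between 5932 and 7013 on the control diet and between 4088 and 5332 on the ketogenic diet. They did not overlap, as in 4.34% of all genes in either direction. The means were 6480.2 ± 410 and 4878 ± 530.1 (SD, n = 5 each), a log2 fold change of −0.41 (standard error 0.0706, edgeR adjusted p = 0.0186). The call was lost with the cardiomyocyte covariate (−0.21, adjusted p = 0.180), without control mouse 2 (−0.37, adjusted p = 0.0613) and without ketogenic mouse 4 (−0.39, adjusted p = 0.0519). An exon of Rapgef1 overlaps Gm9823 on the other strand, and their reads cannot be told apart.

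Adherens junction partners, the catenins, nectins and other cadherins among them, gave 0 of 14 at an adjusted p under 0.05 by edgeR. They had 3 estimates above 0 and 11 below, and a median of −0.06. At an unadjusted p under 0.05, 1 was higher and 3 were lower, where all genes gave 8.57% and 9.26%. The most highly expressed adherens partners were Ctnna1, the α-catenin that links cadherin complexes to actin (log2 fold change −0.06, adjusted p = 0.462, 95.9% of start positions filled) and Ptprb, the phosphatase VE-PTP that acts on VE-cadherin (−0.01, adjusted p = 0.880, 59.0%). Of 22 tight junction partners, 19 were tested and 1, Cldn15, was called, with a median of 0.02. At an unadjusted p under 0.05 by edgeR, 3 of them were higher and 1 was lower. Cgn with 2 to 20 reads, Cldn1 with 0 to 18 and Marveld3 with 0 to 3 were too low to test. Cgnl1, paracingulin, had a log2 fold change of −0.09 (edgeR adjusted p = 0.577).

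Junction regulators, the small GTPases and their partners, gave 1 of 18, Rapgef1, with a median of −0.04. At an unadjusted p under 0.05 by edgeR, 2 regulators were higher and 2 lower, where all genes gave 8.57% and 9.26%. The GTPase Cdc42 had −0.05 (edgeR adjusted p = 0.532) and Rap1b 0.00865 (adjusted p = 0.931). Gap junction genes gave 0 of 5 at an adjusted p under 0.05 by edgeR, with a median of −0.09. At an unadjusted p under 0.05, 2 were lower, against 9.26% of all genes. The arterial connexin Gja4 (−0.07, adjusted p = 0.440) and Gja1, the connexin also abundant in cardiomyocytes (−0.09, adjusted p = 0.212), filled 92.5% and 90.8% of their start positions. Other proteins of endothelial borders gave 0 of 6 at an adjusted p under 0.05 by edgeR, with a median of −0.11. At an unadjusted p under 0.05, 3 were lower, against 9.26% of all genes. The tetraspanin Cd151 had −0.01 (adjusted p = 0.942) and Icam2, an adhesion molecule for leukocytes, −0.07 (adjusted p = 0.409). DESeq2 placed 3 further partners, all lower, at an adjusted p under 0.05, and they are named here after their values were seen. Of all genes to which DESeq2 gave an adjusted p, 5.61% lay under 0.05. Gja5, an arterial connexin, had a log2 fold change of −0.16 by edgeR (adjusted p = 0.0805) and an adjusted p of 0.0338 by DESeq2. Its normalized counts did not overlap between the diets, as in 4.34% of all genes in either direction. Mcam, the adhesion molecule CD146, had −0.16 by edgeR (adjusted p = 0.0658), again without overlap, and 0.0232 as adjusted p by DESeq2. Pvr, a nectin-like adhesion molecule, had −0.22 by edgeR (adjusted p = 0.0930), with overlap, and 0.0359 as adjusted p by DESeq2.

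**Figure D5:**
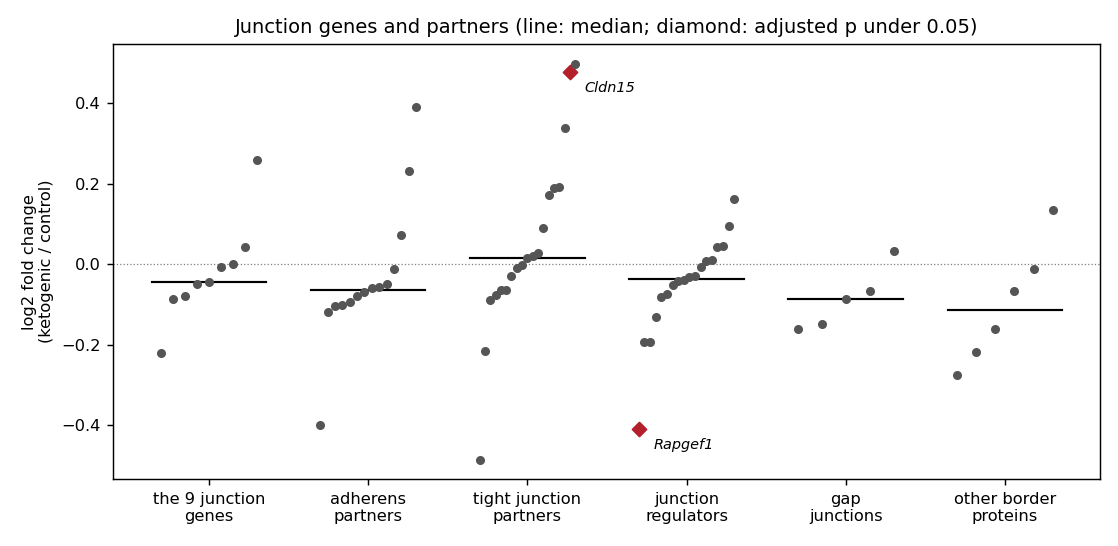
Log2 fold change, ketogenic over control diet, on the y axis, of the 9 junction genes and of the 62 tested partner genes in 5 lists (points, in rising order within a list), with the median of each list as a line. Cldn15 at 0.48 and Rapgef1 at −0.41 are marked as diamonds for an adjusted p under 0.05, and some genes with estimates as far from 0 did not reach it.

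The samples held the markers of their label. The sum of 8 endothelial markers outside the members was 51124 to 54842 normalized counts on the control diet and 49490 to 53492 on the ketogenic diet (ratio 0.972, exact permutation p = 0.127). Markers of other cells were present as well, none of them at 0 in any mouse. Sums of 7 mural cell markers ran from 27031 to 30201 and did not differ detectably (exact permutation p = 0.373), nor did those of fibroblasts (p = 0.714, exact) or lymphatic ECs (p = 0.619, exact). However, 4 of the 7 mural and 2 of the 7 fibroblast markers filled at least 50% of their start positions. If each position was counted once, these 2 sums had little room to differ, so they cannot show that these cells were equal. Macrophage markers had a ratio of means of 0.620 (exact permutation p = 0.0794). Their sums ran from 2169 to 7099 on the control diet, with a median of 3144. On the ketogenic diet they ran from 1829 to 3388, with a median of 2116. Lymphocyte markers had a ratio of 0.729 (exact permutation p = 0.00794). The part of these cells in the values of F11r and Pecam1, which leukocytes carry too, was not tested.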

How the data were processed

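The authors isolated RNA from cardiac ECs taken with CD31 antibodies on magnetic beads, made libraries from 10 ng with the SMART-Seq v4 kit, which does not record the strand, and sequenced 50-base single reads. The submitters' processing notes list bcl2fastq 2.17.1.14, STAR 2.3, HTSeq 0.6.0 and mm10. Counting mode, annotation release and removal of duplicate reads are not given in the sources used here. The authors deposited raw counts per gene and, in a second table, RPKM values. Of 46983 identifiers, 46488 were matched without version to GENCODE M21 on GRCm38, which gave symbols and positions.

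The comparison used edgeR 4.0.16 under R 4.3.3 (TMM, filterByExpr, quasi-likelihood F-test, Benjamini-Hochberg over 15949 genes), with exact permutation tests over 252 groupings for single values. Standard errors were derived from the F statistic. Exonic length was derived from counts and RPKM, and corrected counts are −M ln(1 − count/M) for M start positions of all exons. In a simulation of 5 against 5 mice, 200 genes changed by a log2 fold change of 1. Of these, 187 were called, and 12 unchanged genes were called too, of 16026 tested. The simulated counts had a common dispersion for all genes and no limit on start positions. The simulation therefore does not cover smaller changes or genes near that limit.

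Alternatives were other scalings and filters, DESeq2 1.42.0, limma 3.58.1 on log2(RPKM + 1) and log2(RPKM + 0.1), the replicate number as a block, the cardiomyocyte score as a covariate, corrected counts, and each mouse left out. Members and lists were chosen with earlier results of these data known. Named genes are the members, the 2 of highest mean RPKM and up to 4 with an adjusted p under 0.05 in each partner list, and the 3 most like Cdh5 and Cldn5. Cd99 was not matched. Not every gene named by this rule is reported here. Promoter and protein sequences were not used here.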

Additional observations from a re-analysis of the deposited data

Results flagged for a closer look

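Within each diet the values of 5 mice were searched for a mouse apart from the rest. The log2 ratio of Tjp1 to Cdh5 was lowest in ketogenic mouse 1, at −1.62, and the gap to the next mouse was 0.774 of the range, above Dixon's limit of 0.71 for 5 mice. This was 1 of 52 groups of 5 values, where chance alone flags about 1 in 20, or 2.6 groups.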

How the results depend on the processing

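Against 213 genes, 0 junction genes and 2 partners at an adjusted p under 0.05, DESeq2's Wald test gave 819, 1 and 5 (1 partner higher and 4 lower). The cardiomyocyte covariate, whose score tended to be higher on the ketogenic diet, gave 19 genes and 0 partners, and the replicate block 113 genes. Leaving out each mouse gave 86 to 492 genes, 0 to 1 junction genes and 1 to 2 partners. The extremes came without control mouse 2 (86) and without ketogenic mouse 2 (492), and the junction gene without control mouse 5. Partner calls fell to 1 without control mouse 2 or ketogenic mouse 4. Tjp1 was 0.27 by DESeq2 (adjusted p = 0.00896) and 0.23 to 0.31 with mice left out. Cldn5, near 0, turned to −0.013 with upper quartile factors, −0.0022 with at least 10 counts in every mouse and −0.0020 with the replicate block, and ran from −0.037 to 0.034 with mice left out. Jam2 turned to 0.0049 with library size alone, 0.0011 by DESeq2, 0.0052 and 0.0053 by limma with 1 and 0.1 added, and 0.017 with corrected counts, and ran from −0.019 to 0.013 with mice left out. Cdh5 turned to 0.069 with corrected counts. The log2 ratio of Tjp1 to Cdh5 differed by 0.20 with corrected counts (exact permutation p = 0.0556). With sign flips over same-numbered mice, a replicate block, the ratios differed by 0.30 for Tjp1 and −0.043 for Pecam1 to Cdh5, both with exact p = 0.0625, the smallest that 5 pairs can give. The cause of these changes was not tested.

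Same-numbered mice did not deviate together, with correlations of 0.0044, 0.094, 0.0072, −0.13 and −0.0085 for numbers 1 to 5. These values gave no sign that the numbers pair the samples, but they cannot settle it. The paper describes the control mice as littermates, the sample labels used here name no litter, and an effect of litter was not tested. The direction of Pecam1, Ocln, Esam, Tjp1, F11r and Jam3 was the same under all 21 alternatives. Ocln had only 380 to 623 reads a mouse. If repeated reads were removed, the number of start positions may limit Cdh5, Esam, F11r, Cldn5 and Jam2, and by the principal transcript also Pecam1 and Jam3. Of these, Cdh5, Pecam1, Esam and F11r had a variance below their mean. Such a limit was not tested. With counts corrected by the length of all exons, the log2 ratio of Pecam1 to Cdh5 differed by −0.17. By that length Pecam1 was corrected far less than Cdh5. A difference that was not detectable in these genes is not shown to be absent.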
